A study of Homo sapiens with 6 samples.

Results

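The integrated stress response and the unfolded protein response were followed in A549, a human cell line from a lung adenocarcinoma, after siRNA against the long noncoding RNA CONCR. The 34 genes were listed by name from their known roles, with earlier results of these data known, and 33 of them were among the 15497 named genes that were tested. They fall into 5 sensors and lead transcription factors, 11 genes known as targets of the factor ATF4, 14 chaperones and folding enzymes of the endoplasmic reticulum (ER) and 4 genes of ER-associated degradation. HSP90B1, the ER member of the HSP90 family, shares its transcript cluster (the array's gene-level probe set) with the microRNA gene MIR3652. That cluster could therefore not be assigned to 1 gene. The cluster stayed among those tested, but its values are not given here and HSP90B1 is not counted as a tested member. The other 33 genes each had a cluster of their own.

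Both groups were A549 cells grown in RPMI medium with fetal calf serum and transfected by lipofection on 2 occasions 24 h apart with siRNA at 40 nM. The CONCR siRNA group (3 arrays) received a mixture of 2 siRNAs against CONCR, and the control siRNA group (3 arrays) a control siRNA. The labels give no siRNA sequences and no untransfected cells. The knockdowns are described as independent, but nothing names separate cultures, and the p-values therefore cover the spread among these arrays alone, which may be technical. Values are log2 signals, and differences are CONCR siRNA minus control siRNA on that scale. In RNA from whole cultures, fewer cells that express a gene and less of its RNA per cell cannot be told apart.

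Cells under stress lower general protein synthesis when a kinase phosphorylates the initiation factor eIF2, and under that block the mRNA of ATF4 is translated better. ATF4 then turns on genes of amino acid supply and, with its target CHOP (DDIT3), genes of the later phase of the response. Unfolded protein in the ER is sensed by PERK (EIF2AK3), which is such an eIF2 kinase, by IRE1 (ERN1), which splices the mRNA of XBP1, and by ATF6, which is cut in the Golgi to free a transcription factor. XBP1 and ATF6 raise chaperones and degradation factors of the ER through promoter elements known as ERSE. The arrays measured RNA only, 1 value per gene, and so neither eIF2 phosphorylation, ATF4 protein, ATF6 cleavage nor XBP1 splicing was measured.

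Across tested clusters, arrays of 1 group correlated at 0.989 to 0.993, and arrays of different groups at 0.987 to 0.991. CONCR itself (DDX11-AS1) had log2 signals of 4.23, 4.49 and 4.64 after CONCR siRNA and 4.71, 4.71 and 4.64 after control siRNA. These signals lay near the filter on low signal, set at 4. The means of 4.46 ± 0.21 and 4.69 ± 0.04 (SD, n = 3) differed by -0.23 (SE 0.10, limma adjusted p = 0.42). This difference does not check the labels, and the knockdown of CONCR was not established by these arrays. Of the epithelial markers, KRT8, KRT18, KRT7, KRT19 and CDH1 passed the filter on low signal and EPCAM did not. Of the markers of other cell types, 1 of 5 measured for leukocytes (CD68), 3 of 6 for endothelium (ESAM, VWF and CDH5) and 3 of 5 for fibroblasts (COL1A1, COL1A2 and PDGFRB) passed the filter, while PTPRC, CD3E, CD14, LYZ, PECAM1, KDR, TEK, DCN and LUM were below it. Among the 7 that passed, CD68 was higher by 0.50 (SE 0.06, limma adjusted p = 0.012) and ESAM by 0.41 (SE 0.06, limma adjusted p = 0.030), while the other 5 differed by -0.02 to 0.09 and did not pass. The part of these markers in the results was not tested.

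None of the 33 stress genes passed an adjusted p of 0.05 (limma, Benjamini-Hochberg over all 32540 tested clusters), where 1.88% of all clusters and 2.61% of named genes passed. An unmoderated statistic on the same values also called 0 of the 33. Array weights, named genes fitted alone and a strict filter each called 1 member, HERPUD1. Differences of the 33 lay between -0.36 for HERPUD1 and 0.12 for DNAJC3, with a median of 0.010 against 0.008 over all tested clusters. A difference smaller than 0.1 in size was found for 25 of the 33, against 64.2% of all tested clusters. Among the 15497 named genes it was found for 10627. The 95% confidence intervals of single genes reached from -0.56 to 0.27, so no member's interval held a rise of more than 1.21-fold, the bound of TRIB3. For 32 of the 33 the interval lay within 0.5 log2 units of 0 (1.41-fold). The same held for 90.1% of all tested clusters and 14707 of the 15497 named genes.

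An unadjusted p under 0.05 was found for 7 of the 33 members (21.2%), against 12.7% of all tested clusters and 14.9% of named genes. All 7 were lower after CONCR siRNA, namely HERPUD1, CANX, DDIT4, ATF4, ATF3, PDIA4 and VLDLR. A lower signal with an unadjusted p under 0.05 was found for 7.43% of all tested clusters and 8.84% of named genes. Groups were fully separate on the arrays for 9 members (27.3%), 7 lower and 2 higher, against 19.1% of all tested clusters and 24.4% of named genes. The count of 7 changed with the arrays used. It was 3 without CONCR siRNA replicate 1, CONCR siRNA replicate 3 or control siRNA replicate 2, and 4 without CONCR siRNA replicate 2. A fit without 1 array also has less precision, and this was not separated from the part of the array itself.

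**Figure D1:**
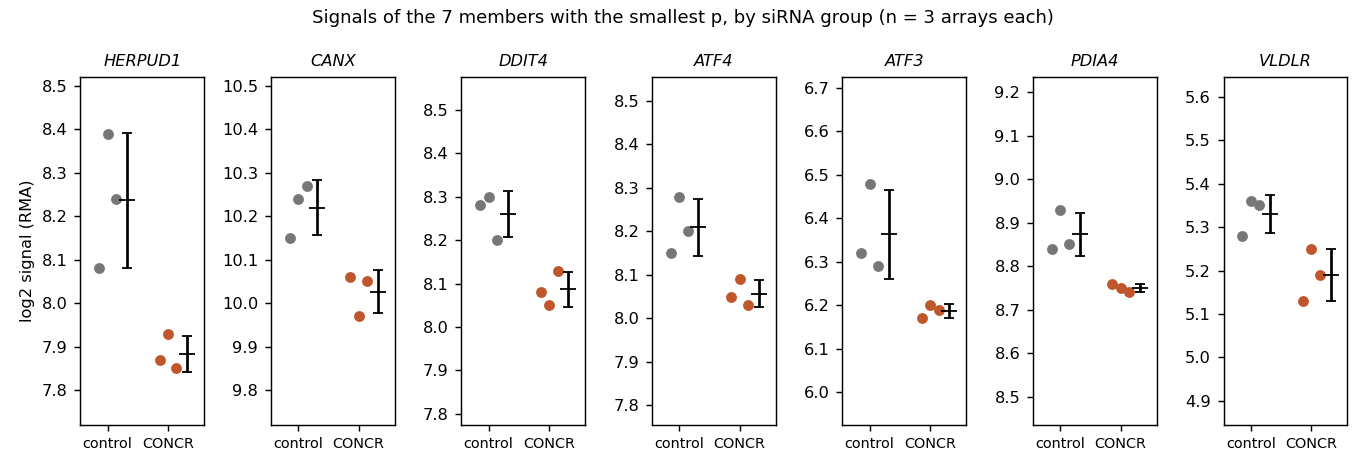
Log2 signal (RMA) on each array for the 7 stress genes with the smallest p, grey for control siRNA and orange for CONCR siRNA, with mean and SD of 3 arrays beside the points. The scale spans the same 0.8 log2 units in every panel but starts at a different level. The CONCR siRNA arrays lie below all control arrays in each panel, and the gap is widest for HERPUD1, at 7.85 to 7.93 against 8.08 to 8.39.

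HERPUD1, a membrane protein that holds the ER degradation machinery together, had the largest difference of all members. Its log2 signal was 7.87, 7.93 and 7.85 after CONCR siRNA and 8.08, 8.39 and 8.24 after control siRNA. The 3 CONCR siRNA arrays were alike and all lay below the controls, which differed more among themselves. The means of 7.88 ± 0.04 and 8.24 ± 0.16 (SD, n = 3) differed by -0.36 (SE 0.08, 95% confidence interval -0.56 to -0.16, 1.28-fold lower), with a limma adjusted p of 0.11 and a two-sided exact permutation p of 0.1, the smallest that 3 arrays against 3 allow. A difference as large in size was found for 3.12% of all tested clusters. The adjusted p was 0.047 with array weights, 0.032 with named genes fitted alone and 0.033 under a strict filter (all limma), and 0.30 at the highest over all alternatives.

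The other 3 degradation genes form or feed the HRD1 ubiquitin ligase, which marks misfolded ER proteins for the proteasome. SYVN1, the ligase itself, ranged from 6.98 to 7.01 after CONCR siRNA and from 6.87 to 7.01 after control siRNA. Its adaptor SEL1L was at 8.53, 8.49 and 8.48 against 8.47, 8.58 and 8.54. EDEM1, a mannosidase that picks glycoproteins for disposal, had log2 signals of 6.77, 6.80 and 6.76 after CONCR siRNA and 6.69, 6.78 and 6.69 after control siRNA. In all 3 genes the groups overlapped, with differences of 0.03 for SYVN1, -0.03 for SEL1L and 0.06 (95% confidence interval -0.07 to 0.18) for EDEM1. The median difference over the 4 degradation genes was 0.002.

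Among the sensors and lead factors, ATF4 alone had groups that did not overlap. That is 1 of 5 genes (20.0%), against 19.1% of all tested clusters and 24.4% of named genes. ATF4 had log2 signals of 8.05, 8.09 and 8.03 after CONCR siRNA and 8.15, 8.28 and 8.20 after control siRNA. ATF4 thus differed by -0.16 (SE 0.06, 95% confidence interval -0.29 to -0.02, 1.11-fold lower), with a limma adjusted p of 0.30. XBP1 was at 6.71, 6.73 and 6.68 after CONCR siRNA and at 6.68, 6.75 and 6.66 after control siRNA, a difference of 0.01 (SE 0.05, 95% confidence interval -0.12 to 0.13, limma adjusted p = 0.98).

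The 3 ER sensors had overlapping groups. ERN1 had log2 signals of 5.42, 5.44 and 5.35 after CONCR siRNA and 5.34, 5.57 and 5.41 after control siRNA, a difference of -0.04 (95% confidence interval -0.21 to 0.14). Differences were -0.03 for EIF2AK3 and 0.03 for ATF6, with adjusted p of 0.88 and 0.92 from limma. The median over the 5 genes was -0.032.

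**Figure D2:**
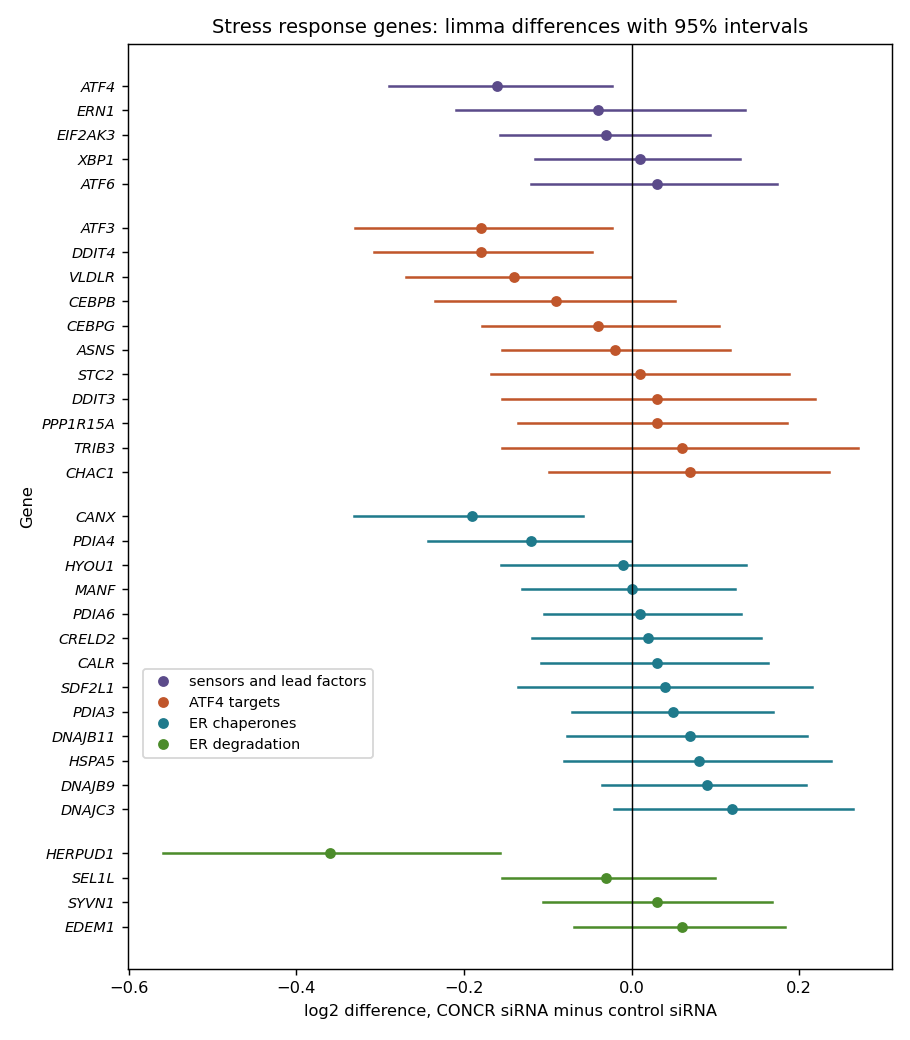
Log2 difference of each of the 33 tested genes (points) with the 95% confidence interval from limma (lines), ordered by size within the 4 role groups, which have their own colours. Most intervals include 0, and HERPUD1 at -0.36 lies furthest from it, while the highest point is DNAJC3 at 0.12.

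Of the 11 ATF4 targets, none passed and 3 had an unadjusted p under 0.05, namely DDIT4, ATF3 and VLDLR. That is 27.3% of the targets, all lower, against 12.7% of all tested clusters and 14.9% of named genes. For lower ones alone, these shares were 7.43% and 8.84%. DDIT4, an inhibitor of the growth kinase mTORC1, had log2 signals of 8.08, 8.05 and 8.13 after CONCR siRNA and 8.28, 8.30 and 8.20 after control siRNA. ATF3, a transcription factor of many stresses, was at 6.17, 6.20 and 6.19 against 6.32, 6.48 and 6.29. VLDLR, a lipoprotein receptor, was at 5.13, 5.25 and 5.19 against 5.28, 5.36 and 5.35. In these 3 genes each CONCR siRNA array was below each control array. The difference was -0.18 for DDIT4 (SE 0.05, 95% confidence interval -0.31 to -0.05) and -0.18 for ATF3 (SE 0.06, -0.33 to -0.02), and VLDLR stood at -0.14 (SE 0.06, -0.269 to -0.001). Limma adjusted p was 0.22, 0.31 and 0.39 in that order.

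DDIT3, which encodes CHOP, the factor linked to death under lasting ER stress, had log2 signals of 5.27, 5.23 and 5.16 after CONCR siRNA. Its control siRNA arrays were at 5.05, 5.32 and 5.19, so that the groups overlapped. The difference was 0.03 (SE 0.08), and the 95% confidence interval of -0.15 to 0.22 reached from 1.11-fold lower to 1.16-fold higher (limma adjusted p = 0.93). Without control siRNA replicate 1 it was -0.03.

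The remaining 7 ATF4 targets had overlapping groups. TRIB3, a pseudokinase that feeds back on the response, was at 0.06, and CHAC1, an enzyme that breaks down glutathione, at 0.07 (SE 0.07). PPP1R15A, the phosphatase subunit GADD34 that reverses eIF2 phosphorylation, differed by 0.03. ASNS, the asparagine synthetase induced when amino acids are short, differed by -0.02 and the secreted glycoprotein STC2 by 0.01, though the mean signal of STC2 lay just above the filter of 4, with arrays between 4.05 and 4.30. The ATF4 partner factors CEBPB and CEBPG were at -0.09 and -0.04. Over the 11 targets the median was -0.018, with 5 positive and 6 negative differences.

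Of the 13 tested chaperones and folding enzymes, none passed, 9 differences were positive and 4 negative, and the median was 0.027. Positive differences made up 69.2%, against 53.0% of all tested clusters and 54.9% of named genes. An unadjusted p under 0.05 was found for 2 (15.4%), against 12.7% of all tested clusters and 14.9% of named genes. Groups were fully separate for 4 (30.8%), against 19.1% and 24.4%. HSPA5, the chaperone BiP that also holds the ER sensors inactive, had log2 signals of 10.87, 10.87 and 10.85 after CONCR siRNA and 10.68, 10.90 and 10.77 after control siRNA. The CONCR siRNA arrays lay within the range of the controls. The difference for HSPA5 was 0.08 (SE 0.07, limma adjusted p = 0.73), and its 95% confidence interval of -0.08 to 0.24 had an upper bound of 1.18-fold. HSPA5 stood at 0.028 when control siRNA replicate 1 was left out and at 0.137 when replicate 2 of that group was.

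CANX, the membrane-bound lectin calnexin that folds glycoproteins, had the largest difference among the chaperones. Its log2 signal was 10.06, 9.97 and 10.05 after CONCR siRNA and 10.15, 10.24 and 10.27 after control siRNA, with no overlap. CANX differed by -0.19 (SE 0.06, 1.14-fold lower, limma adjusted p = 0.20), with a 95% confidence interval of -0.33 to -0.06. CALR, the soluble partner lectin calreticulin, differed by 0.03, its groups overlapping at 11.29 to 11.37 and 11.25 to 11.37. That the lectins differ from each other was not tested.

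PDIA4, a disulfide isomerase, was at 8.76, 8.75 and 8.74 after CONCR siRNA and 8.84, 8.93 and 8.85 after control siRNA, all lower than the controls. PDIA4 differed by -0.12 (SE 0.05, limma adjusted p = 0.39), with a 95% confidence interval of -0.243 to -0.001. The isomerases PDIA3 and PDIA6 were at 0.05 and 0.01, and their groups overlapped.

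DNAJC3, the cochaperone P58IPK that restrains PERK, and DNAJB9, a cochaperone that keeps IRE1 inactive, were the 2 members whose CONCR siRNA arrays were all higher than the controls. DNAJC3 was at 7.18, 7.16 and 7.17 against 6.95, 7.07 and 7.12 after control siRNA, a difference of 0.12 (SE 0.06, limma adjusted p = 0.48). DNAJB9 was at 5.13, 5.21 and 5.12 against 5.06, 5.08 and 5.07, a difference of 0.09 (SE 0.05, limma adjusted p = 0.58). Neither had an unadjusted p under 0.05. Arrays all higher than the controls were also found for 2928 of 32540 tested clusters and 1809 of 15497 named genes.

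DNAJB11, a cochaperone of BiP, differed by 0.07, and a second cluster of the gene by 0.03. SDF2L1, which works with DNAJB11, was at 0.04, the BiP exchange factor HYOU1 at -0.01, and the small ER stress proteins CRELD2 and MANF at 0.02 and 0.00, the latter with a 95% confidence interval of -0.131 to 0.123. All 5 genes had overlapping groups.

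Arrays of the groups overlapped in each of the 4 role groups. Taking each gene's signal minus its mean over the 6 arrays, the median over ATF4 targets was -0.075, 0.025 and -0.044 after CONCR siRNA and 0.042, 0.044 and -0.016 after control siRNA. Over ER chaperones it was 0.048, 0.031 and -0.015 against -0.032, 0.031 and -0.044. These medians overlap between the groups in both cases. Control siRNA replicate 2 gave the highest of the 6 signals for 14 of the 33 members (18.4% of all tested clusters), and control siRNA replicate 1 the lowest for 11 (17.0% of all tested clusters).

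**Figure D3:**
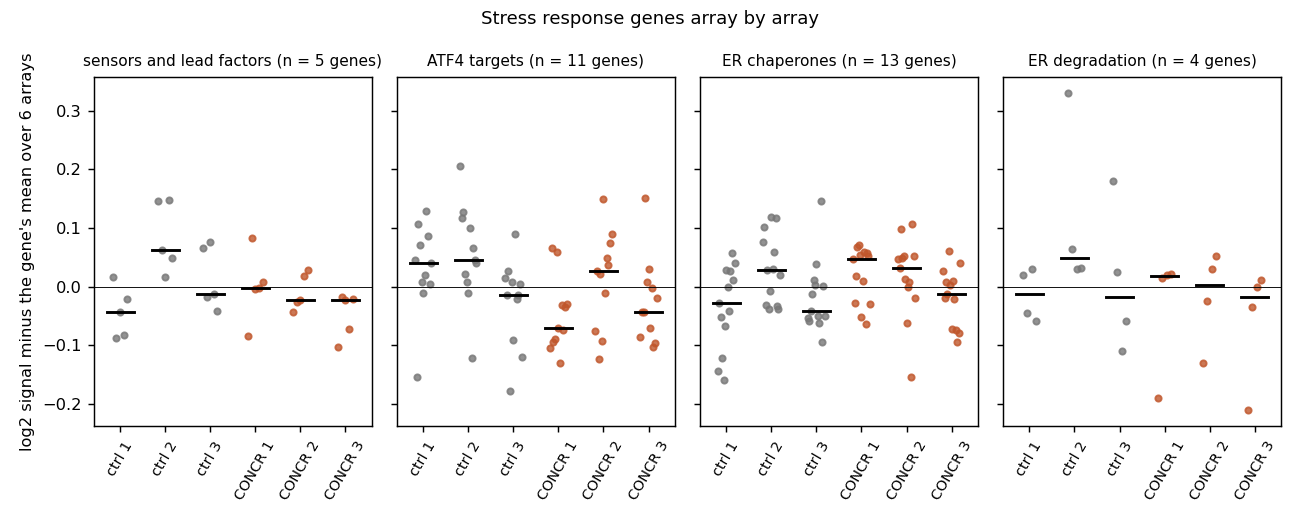
Log2 signal minus the gene's mean over 6 arrays, for each tested gene (points) on each array, by role group, with the median of the genes as a bar. Grey marks control siRNA and orange CONCR siRNA. The bars of the groups overlap in each panel, for example -0.075 to 0.025 against -0.016 to 0.044 for ATF4 targets, and in the last panel HERPUD1 gives the top points of control arrays 2 and 3 and the lowest point of each CONCR siRNA array.

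Promoters of the members were read for the elements through which the pathway is known to act, as a description only. The members were listed for their known roles in that pathway. A higher share of these elements than over all genes therefore follows in part from the list. In all, 14 members held at least 1 of the elements. The windows were those of NCBI RefSeq (GRCh38.p14), 250 bases before to 50 after each start site, on both strands, with all start sites of a gene. They were available for 33 of 34 members, PDIA3 being the other. The ERSE (ER stress element), CCAAT and CCACG separated by 9 bases, was found for 7 members (21.2%) and for 0.0916% of all 27305 genes. HSP90B1 is among the 7, though its matches are not printed below. The related ERSE-II, ATTGG and CCACG separated by 1 base, was found for 3 members (9.09%) and 0.0696% of all genes. The core of the ATF4 and C/EBP composite element, TGATG followed by any base and AA, was found for 5 members (15.2%) and 4.46% of all genes, and the core TGACGTGG of the XBP1 element for 1 member, HYOU1, where it overlaps an ERSE-II, and 0.927% of all genes.

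HERPUD1 is shown whole because it had the largest difference and holds an ERSE-II and the composite core, the latter on the opposite strand. HSPA5 is shown beside it as the classical ERSE promoter, whose gene differed by 0.08. Capitals mark the matches, and both are written 5′ to 3′ in the direction of the gene.
HERPUD1, chr16:56931892-56932191, plus strand: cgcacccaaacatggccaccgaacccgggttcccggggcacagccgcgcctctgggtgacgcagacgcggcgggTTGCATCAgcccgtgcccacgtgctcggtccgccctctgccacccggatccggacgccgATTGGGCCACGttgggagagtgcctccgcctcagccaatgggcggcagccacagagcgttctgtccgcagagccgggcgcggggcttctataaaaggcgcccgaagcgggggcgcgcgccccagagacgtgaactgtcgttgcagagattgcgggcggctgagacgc
HSPA5, chr9:125241294-125241593, minus strand: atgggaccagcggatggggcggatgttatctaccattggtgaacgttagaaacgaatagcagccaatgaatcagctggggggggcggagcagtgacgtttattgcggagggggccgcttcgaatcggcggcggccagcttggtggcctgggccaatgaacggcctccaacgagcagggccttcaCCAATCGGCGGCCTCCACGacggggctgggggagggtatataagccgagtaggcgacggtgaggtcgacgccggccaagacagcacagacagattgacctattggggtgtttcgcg

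The ERSE matches of the other tested members are set out to compare their spacers, with 6 bases on each side, the letters of the element in capitals, and each written in the direction of CCAAT to CCACG.
CANX, chr5:179698778-179698796, plus strand: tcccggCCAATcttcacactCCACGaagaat
XBP1, chr22:28800603-28800621, minus strand: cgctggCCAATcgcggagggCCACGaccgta
CALR, chr19:12938384-12938402, minus strand: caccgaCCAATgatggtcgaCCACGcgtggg
CRELD2, chr22:49918554-49918572, minus strand: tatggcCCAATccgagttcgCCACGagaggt
PDIA6, chr2:10812853-10812871, minus strand: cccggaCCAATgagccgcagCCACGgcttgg
The ERSE-II matches follow the same layout.
HERPUD1, chr16:56932025-56932035, plus strand: acgccgATTGGgCCACGttggga
HYOU1, chr11:119057380-119057390, plus strand: cctgggATTGGaCCACGtcacgg
HYOU1, chr11:119057274-119057284, plus strand: gtactcATTGGaCCACGtcccag
SDF2L1, chr22:21642114-21642124, minus strand: gttttgATTGGtCCACGcttccg

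Among the 9 tested members with an ERSE or ERSE-II, differences ran from -0.36 (HERPUD1) to 0.08 (HSPA5), and 7 of the 9 were smaller than 0.1 in size. CANX, at -0.19, was the other exception. HERPUD1 holds the ERSE-II and CANX the ERSE. No ATF4 target held an ERSE or ERSE-II in these windows, and 4 of the 11 held the composite core.
ASNS, chr7:97872469-97872476, minus strand: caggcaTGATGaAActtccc
ATF3, chr1:212565216-212565223, plus strand: tcaggaTGATGgAAggctgt
CEBPG, chr19:33374071-33374078, plus strand: ggcgtcTGATGcAAcctgcc
CHAC1, chr15:40953262-40953269, minus strand: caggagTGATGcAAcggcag
The letters of the core are in capitals here too. ATF3 was at -0.18, and the other 3 genes were between -0.04 and 0.07. A match describes letters in the window and shows no binding.

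The wider pathway was read from lists of related genes, and 4 of their 149 tested members passed (2.68%, against 1.88% of all tested clusters and 2.61% of named genes), each of them lower after CONCR siRNA. Among all 613 clusters that passed, 488 were lower and 125 higher. TMBIM6 and MBTPS1 are regulators of the ER sensors, SRPRA belongs to protein entry into the ER, and SLC7A5 to the amino acid transporters that ATF4 induces. None of these genes is itself a chaperone. With the replicate number as a block, 0 genes of the related lists passed.

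TMBIM6, the ER membrane protein BAX inhibitor 1, which restrains IRE1 and protects from ER stress, had log2 signals of 9.35, 9.23 and 9.28 after CONCR siRNA and 9.95, 10.01 and 10.00 after control siRNA. All 3 CONCR siRNA arrays were lower by more than the spread of either group. TMBIM6 fell by 0.70 (SE 0.05, 95% confidence interval -0.83 to -0.57, 1.63-fold lower, limma adjusted p = 0.0034), and the call was kept without each array in turn (adjusted p at most 0.030).

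MBTPS1, the site-1 protease that makes the first cut in ATF6, was at 7.33, 7.33 and 7.36 after CONCR siRNA and 7.57, 7.65 and 7.63 after control siRNA, again without overlap. It fell by 0.28 (SE 0.05, 1.21-fold lower), but its limma adjusted p of 0.048 was at the threshold and the call was lost whichever array was left out (adjusted p from 0.067 to 0.18), under median centring (0.077), without the filter (0.17) and without moderation (0.057). MBTPS2, the site-2 protease that makes the next cut, ranged from 6.88 to 7.02 against 7.15 to 7.21. Its difference of -0.21 (SE 0.06) had a limma adjusted p of 0.19. The other 12 of the 15 regulators of the sensors had an unadjusted p of 0.05 or more, and the median of the list was 0.022.

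SRPRA, the subunit of the signal recognition particle receptor that docks ribosomes at the ER, was at 8.03, 7.98 and 7.96 after CONCR siRNA and 8.34, 8.46 and 8.38 after control siRNA. Here too every CONCR siRNA array was lower. SRPRA fell by 0.40 (SE 0.06, 1.32-fold lower, limma adjusted p = 0.020), and the call was lost on leaving out any array other than control siRNA replicate 1 (adjusted p from 0.075 to 0.098), without the filter (0.069) and without moderation (0.061). Of the other 19 genes of ER entry and signal processing none passed. SEC23B, of the coat of ER export vesicles, was at 0.15 and SEC11C, of the signal peptidase, at -0.14, with limma adjusted p of 0.32 and 0.39.

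Of 33 further ATF4 targets outside the member list, SLC7A5 was the 1 that passed. SLC7A5, the leucine transporter, was at 10.66, 10.68 and 10.74 after CONCR siRNA and at 11.26, 11.42 and 11.23 after control siRNA. It was 1.52-fold lower (log2 -0.61, SE 0.07, limma adjusted p = 0.0099), and leaving out CONCR siRNA replicate 1 (adjusted p = 0.052) or 2 (0.059), or the moderation (0.066), ended the call.

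GDF15, a secreted stress cytokine that p53 also induces, was at 7.93, 7.99 and 7.64 against 7.30, 7.40 and 7.31, a difference of 0.52 (SE 0.10, limma adjusted p = 0.058). CTH, the cystathionine lyase that makes cysteine, and SLC7A1, a transporter of cationic amino acids, were at -0.28 and -0.29, both short of the threshold (limma adjusted p of 0.071 and 0.10). Within the list there were 16 positive and 17 negative differences, with a median of -0.011.

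The lists of eIF2 and its kinases (17 genes), of other ER folding genes (18) and of other ER degradation genes (20) held no call by limma, with 2, 4 and 3 genes at an unadjusted p under 0.05. These are 11.8%, 22.2% and 15.0% of the lists, against 12.7% of all tested clusters and 14.9% of named genes. EIF2AK4, the kinase GCN2 that senses uncharged tRNA, was at 7.29, 7.24 and 7.26 after CONCR siRNA and 6.92, 7.10 and 7.03 after control siRNA, a difference of 0.25 (SE 0.06, limma adjusted p = 0.14). All its CONCR siRNA arrays were higher than the controls. EIF2B4, a subunit of the exchange factor that phosphorylated eIF2 blocks, differed by 0.17 (limma adjusted p = 0.22).

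Among folding genes, the isomerase PDIA5 was at 0.20 and TXNDC11, of the thioredoxin family, at 0.12, while SELENOF, a selenoprotein of the ER, was at -0.16 and DNAJC1, a membrane-bound cochaperone, at -0.12. Limma adjusted p ran from 0.12 for PDIA5 to 0.39 for TXNDC11 and DNAJC1. In the degradation list EDEM3, a mannosidase related to EDEM1, was at 0.21, FAF2, which brings the ATPase VCP to the ER, at -0.17 and STT3B, a catalytic subunit of oligosaccharyltransferase, at -0.15. Their limma adjusted p were 0.20, 0.22 and 0.33. Medians of the 3 lists were 0.024, -0.005 and 0.013.

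**Figure D4:**
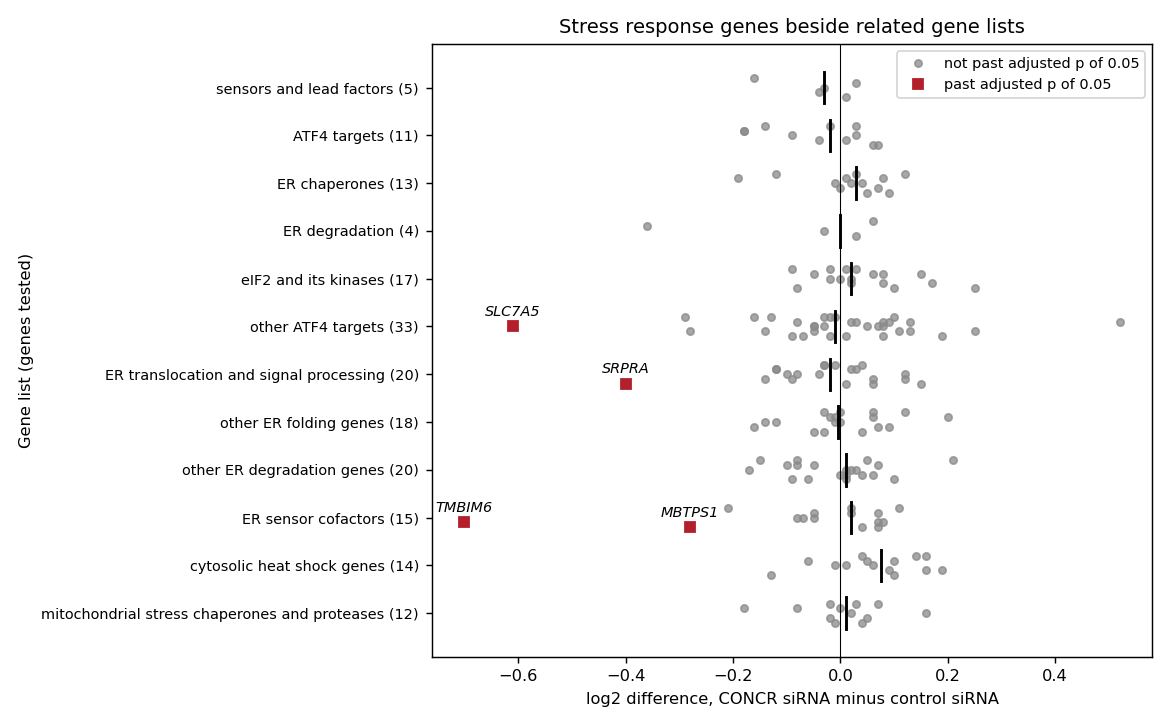
Log2 difference of every tested gene (points) in the 4 role groups of stress genes and in 8 related lists, with the number of genes in brackets and the list median as a bar. Squares with names are the 4 genes past an adjusted p of 0.05 (limma), all of them lower, from TMBIM6 at -0.70 to MBTPS1 at -0.28, and the bars lie between -0.032 and 0.073.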

How the data were processed

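RNA of A549 cells was measured on Affymetrix arrays, 3 per siRNA group. Per the submitters' processing notes, the authors made log2 signals with RMA and Affymetrix Power Tools, with version and probe-set build not given in the sources used here. RMA as a method includes quantile normalization, under which a change in total RNA per cell is not seen. Arrays have no read depth, and their number limits the precision.

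Of 70523 probe sets, 2995 control sets were left out and 67528 transcript clusters kept. The 32540 with a log2 signal above 4 on at least 3 arrays were tested. Symbols came from the platform annotation, updated by Entrez identifier through RefSeq (GRCh38.p14). A gene was named from a cluster with 1 symbol, the brightest where there were several. The groups were compared with limma 3.58.1 (R 4.3.3), lmFit and eBayes, two-sided, Benjamini-Hochberg over all tested clusters, threshold 0.05, 6.91 degrees of freedom. No p was adjusted over the members alone. Alternatives changed the filter, normalization, moderation, array weights, clusters per gene, the replicate block and, in turn, each array left out. Promoters were scanned in Python 3.11.15.

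The members, lists and rules were chosen with earlier results of these data known. Array values are given for members with an unadjusted p under 0.05, the 2 largest differences per role group, and ATF4, DDIT3, XBP1 and HSPA5. In related lists, called genes and up to 4 with the smallest p under 0.05 are named. Others shown by array were chosen after their values were seen.

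Tested on simulated data with 200 of 32540 clusters changed, the fit recovered 0% of changes of 0.3, 46.5% of 0.5 and 87.4% of 1. The simulation drew normal noise with each cluster's own SD. In the data 613 clusters passed, more than were changed in the simulation, and MBTPS1 passed at -0.28. The simulated shares therefore do not carry over directly to the data.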

Additional observations from a re-analysis of the deposited data

How the results depend on the processing

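The number of tested clusters past the threshold depended on the setting. It was 613 as reported, 958 with named genes fitted alone, 238 without the filter, 1102 under the strict filter at a log2 signal of 6, 965 with an intensity trend and robust estimation, 169 without moderation, and 129 to 411 on leaving out 1 array. The count of stress genes past the threshold was 0 as reported and on leaving out any array, and 1 (HERPUD1) with array weights, with named genes fitted alone and under the strict filter. Members with an unadjusted p under 0.05 numbered 7 as reported and 3 to 7 on leaving out 1 array. The 149 genes of related lists held 4 calls as reported, 9 with named genes alone, 9 under the strict filter (127 genes), 2 without the filter, and 1 to 3 on leaving out 1 array. The median of sensors and lead factors was -0.032 as reported and -0.060 to 0.030 on leaving out 1 array. The other medians ranged on leaving out 1 array from -0.014 to 0.033 for all members (0.010 as reported), -0.034 to -0.003 for ATF4 targets (-0.018), 0.005 to 0.059 for ER chaperones (0.027) and -0.018 to 0.026 for ER degradation (0.002). Quantile normalization and median centring changed no call among members.

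The labels do not say whether replicate numbers pair the samples. Deviations of same-numbered arrays correlated at -0.268, -0.159 and -0.080, which gave no sign of pairing, but 3 arrays per group cannot exclude it. With the replicate number as a block, 51 clusters, 0 stress genes and 0 genes of related lists passed, and 2 members had an unadjusted p under 0.05. Under the block, adjusted p was 0.059 for TMBIM6, 0.097 for SLC7A5, 0.15 for SRPRA and 0.26 for MBTPS1.

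Signs turned for uncalled differences near 0. DDIT3 was at -0.011 with array weights and between -0.034 and 0.099 on leaving out 1 array, ERN1 between -0.088 and 0.030 on leaving out 1 array, and XBP1 at -0.004 with array weights, -0.001 under median centring, and between -0.010 and 0.034 on leaving out 1 array. The cause of these changes was not tested. A difference of the members' size cannot be resolved firmly with 3 arrays per group.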

Other observations

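Cytosolic and mitochondrial stress genes were measured beside the ER genes. Of 14 tested cytosolic heat shock genes, 11 (78.6%) had a positive difference, against 53.0% of all tested clusters and 54.9% of named genes. The median was 0.073 against 0.008 over all tested clusters, and none passed the limma test, with 5 (35.7%) at an unadjusted p under 0.05, against 12.7% of all tested clusters. The small heat shock protein HSPB1 was at 8.94 ± 0.04 after CONCR siRNA and 8.78 ± 0.06 after control siRNA (SD, n = 3), a difference of 0.16 (SE 0.06, limma adjusted p = 0.28). DNAJB1, a cochaperone of HSP70, was at 0.16 and BAG3, a cochaperone that links HSP70 to autophagy, at 0.14, while FKBP4, a cochaperone of HSP90, was at -0.13, with limma adjusted p of 0.34, 0.31 and 0.34.

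Of 12 mitochondrial chaperones and proteases none passed, and the median was 0.012. An unadjusted p under 0.05 by limma was found for 2 (16.7%), against 12.7% of all tested clusters and 14.9% of named genes. CLPX, the unfoldase of the matrix protease ClpXP, was at 0.16 (SE 0.05, limma adjusted p = 0.24), and YME1L1, a protease of the inner membrane, at -0.18 (SE 0.07, limma adjusted p = 0.37).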
